A study of Homo sapiens with 9 samples.

Results

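The anti-HA peaks of A549 cells that carry no HA tag were set against the H3K4me3 peaks of A549 cells that do, by 1 bp overlap, to describe which H3K4me3-marked sites gave background signal and where inside the marked interval that signal lay. All rows on chromosomes 1 to 22 and X were taken from both deposited lists. They came to 2381 untagged anti-HA peaks and 16997 H3K4me3 peaks, together 19378 of the 27108 peaks in the 3 lists of the series. A549 is a human lung adenocarcinoma line. The wild-type (WT) group was untagged A549 cells profiled by CUT&Tag with an anti-HA antibody, replicates 1 to 3. The H3K4me3 group was HA-BAZ2B A549 cells, in which an HA tag was inserted at the 5′ end of the endogenous BAZ2B gene, profiled with an H3K4me3 antibody, replicates 1 to 3. H3K4me3 was profiled in the tagged cells only, so the lists differ in cell line as well as in antibody. Whether the tagged line is 1 clone is not given in the labels. The antibody field of H3K4me3 replicates 2 and 3 reads H3K4me4 and H3K4me5, and the titles, which name H3K4me3 throughout, were followed. The protocol text mentions an siRNA transfection that no label assigns to a library, and 35 ng of Drosophila spike-in chromatin.

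H3K4me3 is trimethylation of lysine 4 on histone H3, laid down by SET1 and MLL methyltransferase complexes around the start sites of active genes and at CpG islands. In CUT&Tag an antibody tethers a protein A-Tn5 transposase, which cuts and tags the DNA beside the antibody's target. Untethered Tn5 prefers accessible DNA, and active promoters are among the most accessible sites in a nucleus, so a profile of cells that lack the epitope is the usual measure of background. The files carry hg19 positions without gene names, so no site was tied to a gene or a transcription start here. The intervals are called H3K4me3 peaks below and not promoters, and cytogenetic bands of hg19 are given in place of genes.

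Each list holds 1 row per peak with values from 1 library, kept where at least 2 of the 3 replicates had the peak. There is no value per replicate, and no difference below was tested across samples. Shares carry exact (Clopper-Pearson) 95% intervals, which cover counting error over peaks only. For each peak the whole number of reads stacked at its summit (summit depth) and the number that the peak caller expected there (expected depth) were recovered from the deposited fold enrichment and −log10 p. All 2381 WT and all 16997 H3K4me3 peaks had 1 matching summit depth. The median summit depth was 22 reads in the WT list (interquartile range 16 to 32, range 6 to 280) and 71 in the H3K4me3 list (35 to 98, range 4 to 317). As single counts, 22 and 71 reads have exact Poisson 95% intervals of 13.8 to 33.3 and 55.5 to 89.6. The lowest expected depth, which MACS2 does not let fall under its genome-wide mean, was 0.466 reads in the WT list and 0.485 in the H3K4me3 list. The libraries were not scaled to each other.

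Of the WT peaks, 2229 of 2381 lay on an H3K4me3 peak (93.6%, 95% interval 92.6 to 94.6). Seen from the other list, 2224 of 16997 H3K4me3 peaks held a WT peak (13.1%, 12.6 to 13.6), and 14773 held none. Nearly all matches were simple. There were 2207 peaks paired with exactly 1 partner, 9 H3K4me3 peaks with 2 WT peaks each, and 4 WT peaks that reached across 2 H3K4me3 peaks. Almost all kept WT peaks were thus on H3K4me3 peaks, while most H3K4me3 peaks held no WT peak. The WT peaks covered 1.61 Mb and the H3K4me3 peaks 19.8 Mb. Reads outside peaks were not counted, so where the rest of the background lay was not measured.

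Summit read depth separated the H3K4me3 peaks with and without a WT peak more than expected depth, width, fold enrichment or −log10 q did. Fold enrichment hardly separated them in rank order. H3K4me3 peaks with a WT peak had a median summit depth of 101 reads (interquartile range 71 to 122), against 67 (33 to 92) for those without. Their expected depth was also higher, with a median of 10.1 against 5.71 reads. Because both terms of the ratio were higher, the median fold enrichment was no higher, at 8.74 against 9.13. Their median width was 1367 bp against 1102 bp. When every peak with a WT peak was set against every peak without one, the former had the greater summit depth in 70.9% of such pairs. The former had the greater −log10 q in 67.3%, expected depth in 67.0%, width in 64.2% and fold enrichment in 47.2%, where 50 would mean no order.

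The share with a WT peak was at most 8.69% over the lower 6 deciles of the depth range, lowest in deciles 3 to 5, and then climbed. In deciles of H3K4me3 summit depth it was 7.21% in the lowest (depths of 4 to 15 reads), 8.69% in the next, 5.25%, 5.84% and 5.55% in deciles 3 to 5, and 8.12% in decile 6. It was 11.6%, 16.2% and 22.9% in deciles 7 to 9 and 39.95% (37.6 to 42.3) in the top decile, whose depths ran from 118 to 317 reads. The intervals of the top 3 deciles did not overlap those of deciles 1 to 6. Among the 50 H3K4me3 peaks of greatest depth 36 held a WT peak (72.0%, 57.5 to 83.8), and among the top 1000 the share was 45.3%. Ranking by width gave 22 of the top 50 (44.0%) and 26.6% of the top 1000. Ranking by fold enrichment gave 11 of the top 50 and 12.4% of the top 1000, which is close to the 13.1% of all H3K4me3 peaks.

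**Figure D1:**
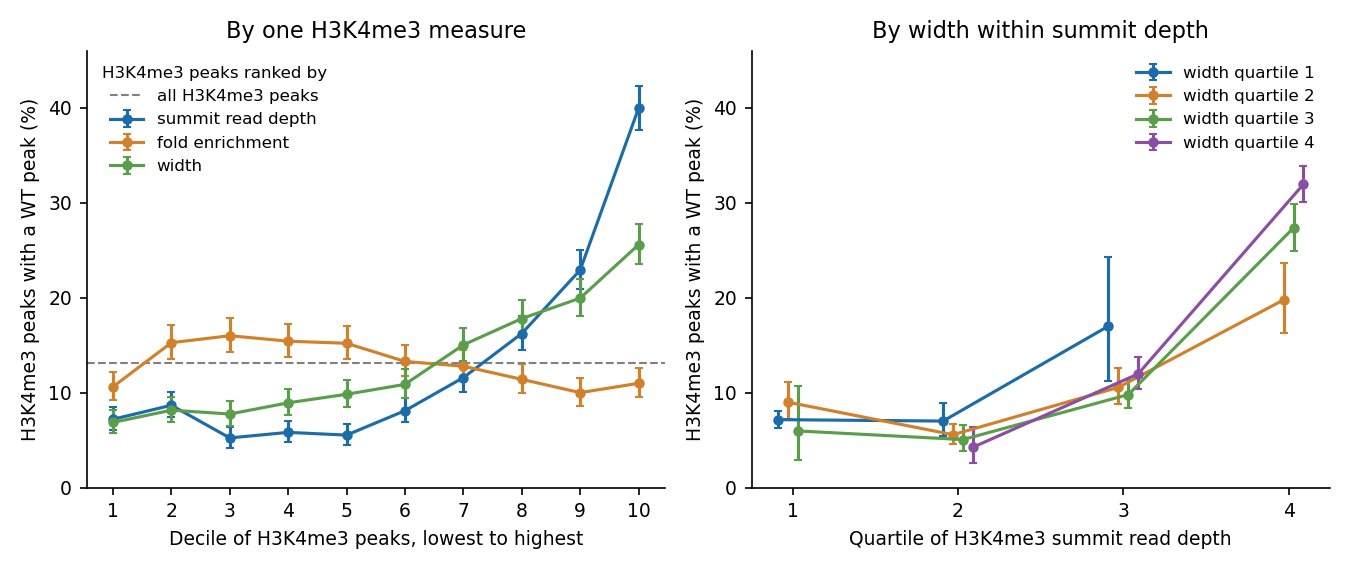
Share of H3K4me3 peaks that held a WT anti-HA peak (%), with exact 95% intervals. The left panel ranks the H3K4me3 peaks into deciles by summit read depth, fold enrichment or width, with the share of all peaks (13.1%) dashed. The right panel splits each depth quartile by width quartiles, for classes of at least 100 peaks. The depth curve climbs to 39.95% in the top class. The fold curve stays between 10.0% and 16.0%, highest in deciles 2 to 5 and without a steady climb.

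Depth and width were then crossed. In the top depth quartile the share went from 16.7% (6 of 36) in the narrowest width quartile through 19.8% and 27.4% to 32.0% (732 of 2291) in the widest. Among the widest quartile, by contrast, the share was 0 of 35 at the lowest depth (up to 10.0% by the interval), 4.27% (21 of 492) in the next depth quartile, 12.0% and then 32.0%. In the same 4 depth quartiles the narrowest peaks had 7.18%, 7.03%, 17.0% and 16.7%, so the climb with depth was steeper among wide peaks. At fixed depth, fold enrichment gave no steady order. In the top depth quartile the share was 28.0%, 32.4%, 28.6% and 25.4% from the lowest to the highest fold quartile. By expected depth, the same depth quartile had 20.0% (11 of 55), 23.3% and 31.4% in expected-depth quartiles 2 to 4. In depth quartiles 1 and 2 the share did not climb with expected depth.

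Single sites show the range. The H3K4me3 peak of greatest depth, at 2p25.3 (chr2:739943-741082), had 317 reads at its summit and a WT peak of 48 reads 50 bp away. The H3K4me3 peak at 17q21.31 (chr17:41465450-41466948) had 201 reads and a WT peak of 69. Of about equal H3K4me3 depth, the peak at 16p13.11 (chr16:15004814-15006708) had 203 reads and no WT peak. The same held for a peak at 17p13.1 (chr17:7142130-7143181) with 184 reads. High depth thus went with a greater share but did not fix the outcome at a given site. The widest H3K4me3 peak with a WT peak, 3786 bp at 15q26.3 (chr15:99190357-99194142), had 132 reads against 16 in the WT peak, and the widest of all, 3988 bp at 15q23 (chr15:69109855-69113842), had 113 reads and no WT peak.

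Close neighbours had a lower share than their depth and width classes, and the gap lay in the top depth quartile. Of 759 H3K4me3 peaks with another H3K4me3 peak under 1 kb away, 60 held a WT peak (7.91%, 6.09 to 10.1). Peaks of the same depth decile and width quartile over the whole list give 11.5%. The share was 14.8% for neighbours at 1 to 10 kb (13.6% from depth and width), 13.6% at 10 to 100 kb (13.4%) and 10.9% at 100 kb or more (11.8%). In the top depth quartile 14 of 133 close neighbours held a WT peak (10.5%, 5.88 to 17.0), against 29.4% to 30.2% in the other neighbour classes. In depth quartile 3 the close neighbours had 12.1% against 10.1% to 12.9%, and in quartile 2 they had 5.32% against 2.74% to 8.18%, so no such gap was seen there. In quartile 1 they had 6.15% (3.11 to 10.7) against 6.23% to 8.10%. Close neighbours also had a median H3K4me3 expected depth of 12.3 reads, against 5.05 to 7.56 in the other classes. Their median fold was 4.68 against 8.01 to 9.50. Whether this bears on the share was not tested.

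Chromosomes differed in the share, mostly along with the depth of their H3K4me3 peaks. The share ran from 6.87% on chromosome 4 (45 of 655) and 7.74% on X (47 of 607) to 18.8% on chromosome 19 (207 of 1102) and 20.4% on chromosome 17 (213 of 1042). Given the depth deciles and width quartiles of its peaks, chromosome 4 would have 9.46%, chromosome 19 15.3% and chromosome 17 18.2%. Chromosome 21 stood farthest above its own value, at 26 of 167 peaks (15.6%, 10.4 to 21.97) against 9.94%. Across the 23 chromosomes the share ranked with median H3K4me3 depth at a Spearman rho of 0.69. The chromosomes share both libraries, so this is a description only.

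**Figure D2:**
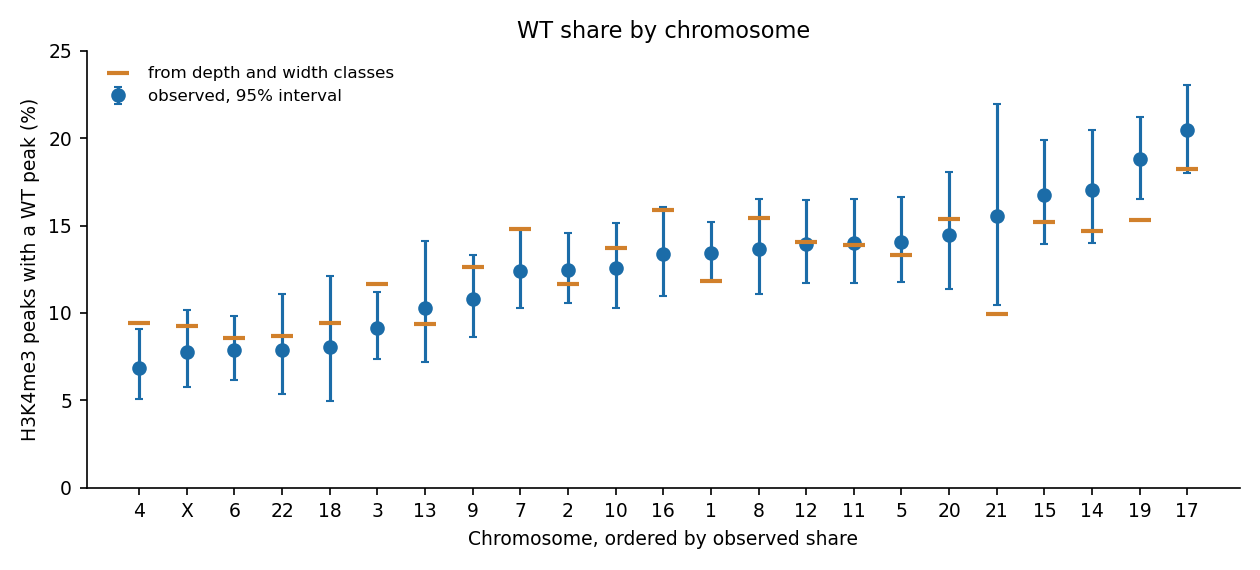
Share of H3K4me3 peaks with a WT peak (%) for each chromosome, ordered by the observed share. Points and bars give the observed share and its exact 95% interval, and the orange marks give the share that peaks of the same summit-depth and width classes have over all chromosomes. The intervals of chromosomes 3, 4 and 7 lie below their mark and those of chromosomes 1, 19 and 21 above it.

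The arms of a chromosome differed as well. The share was 24.9% on 19q (156 of 627) and 10.7% on 19p (51 of 475). It was 18.1% on 1q and 9.23% on 1p. The deepest H3K4me3 peaks were spread more unevenly still: 29.7% of 19q peaks were in the top depth decile against 2.53% of 19p peaks, 12.5% on 1q against 1.25% on 1p, 26.1% on 9p against 3.06% on 9q, and 0.388% on 6p. A549 cells are aneuploid, and the number of copies of each arm was not measured here. Ranking depth within each of the 41 arms gave nearly the same shares as ranking over the genome, 7.54%, 6.29%, 10.6% and 27.8% from the lowest to the highest quartile. In 41 of 41 arms the top quartile had the greater share than the lowest, and in the top quartile the arms ran from 11.3% to 49.7%. On 9p, whose peaks were deep, the share was 14.0% (9.69 to 19.2) against 18.5% from depth and width, a value inside the interval. The intervals of 3q, 4q and 16q lay below their depth and width values, with 10.1% (7.05 to 13.9) against 14.7% on 16q. Those of 1q, 17p and 19q lay above, with 24.9% (21.5 to 28.5) against 19.4% on 19q.

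Inside the H3K4me3 peak, the WT peak as called was a shorter interval around the middle. Over the 2207 pairs its width was 0.501 of the H3K4me3 width at the median (interquartile range 0.364 to 0.663). It lay wholly within the H3K4me3 peak in 1775 pairs (80.4%), and covered all of it in 83. The WT summit was inside the H3K4me3 peak in 2199 pairs, and the H3K4me3 summit was inside the WT peak in 1966 (89.1%). At the median, 290 bp of H3K4me3 peak were left uncovered on the lower-coordinate side and 278 bp on the other, so no side was favoured in genome coordinates. With each H3K4me3 peak cut into 5 equal stretches, the WT summits fell 6.21%, 24.1%, 37.0%, 26.4% and 5.98% from the lower to the higher coordinate. The H3K4me3 summits were more central, with 49.5% in the middle stretch and 1.59% and 1.50% in the outer ones. Median summit depth in these pairs was 23 reads in WT and 101 in H3K4me3. The median width ratio was 0.767 in the lowest quartile of H3K4me3 depth among pairs and 0.464 in the highest. Whether the shorter WT interval goes with its lower depth was not tested, so signal beyond the called WT peak is not excluded.

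How much of the H3K4me3 peak was covered varied with its width. No peak in either list was under 299 bp wide. In H3K4me3 peaks under 500 bp the WT peak was 1.16 times as wide at the median and was wholly inside in 17.3%. The ratio was 0.717 at 500 to under 1000 bp, 0.465 at 1000 to under 2000 bp and 0.372 at 2000 bp or more, where 90.2% of WT peaks were wholly inside. The plot of WT coverage along the H3K4me3 peak shows the flat, partly covered centre of the widest class.

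**Figure D3:**
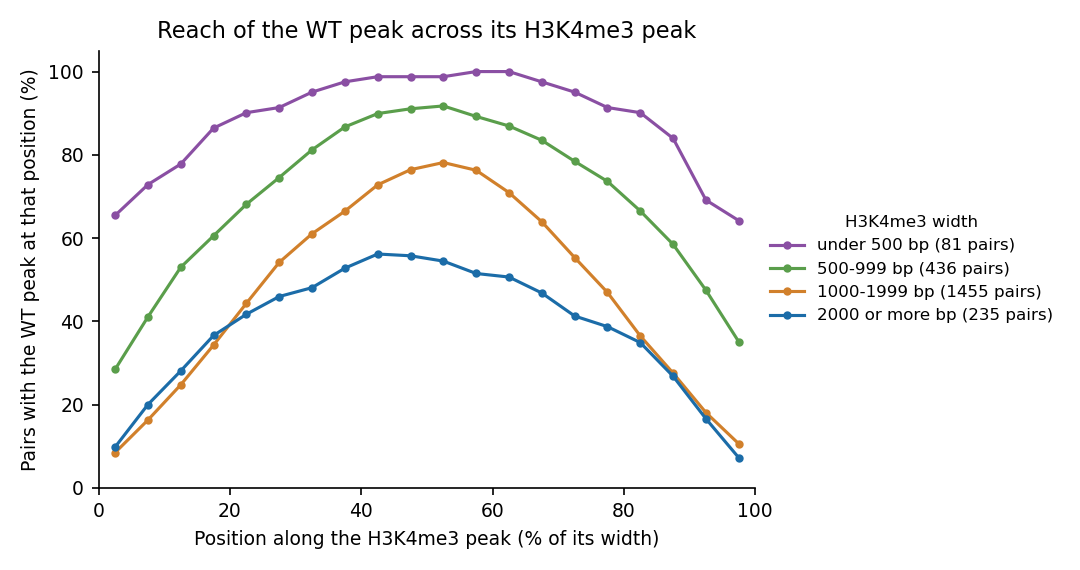
Percent of pairs in which the WT peak was present at each position along its H3K4me3 peak (0 to 100% of the width, 20 steps), by H3K4me3 width class. Coverage is highest near the middle in each class and lowest at the edges. Near the centre the curve falls with width, from near 100% under 500 bp to 56.2% at 2000 bp or more. At the lower-coordinate edge the widest class lies slightly above that of 1000 to under 2000 bp (9.79% against 8.45% in the first step).

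The WT and H3K4me3 summits were close. Their median distance was 78 bp (interquartile range 30 to 264.5), with 797 pairs (36.1%) under 50 bp and 1240 (56.2%) under 100 bp. The WT summit lay at the higher coordinate in 1098 pairs, at the lower in 1084 and on the same base in 25. In 574 pairs (26.0%) it was 250 bp or more away. That share was 1.23% in H3K4me3 peaks under 500 bp, 9.86% at 500 to under 1000 bp, 28.2% at 1000 to under 2000 bp and 51.1% at 2000 bp or more, which have more room for it.

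Distance did not fall off evenly. Counted per kb of H3K4me3 peak lying at each distance, the density of WT summits was 3.61 within 50 bp of the H3K4me3 summit, 2.01 at 50 to 100 bp, and 0.33 at 250 to 300 bp. It then rose again to 0.54 at 450 to 500 bp and fell to 0.12 at 600 to 650 bp. The rise was clearest in H3K4me3 peaks of 1500 bp or more (843 pairs), from 0.31 at 200 to 250 bp to 0.69 at 450 to 500 bp. In peaks of 1000 to under 1500 bp (847 pairs) it was slight, from 0.34 at 250 to 300 bp to 0.42 at 300 to 350 bp. The band from 300 to under 550 bp held 388 pairs (17.6%). In 264 of these the WT peak still covered the H3K4me3 summit, so that 1 WT peak spanned both positions with its highest point on the farther one. The 574 pairs at 250 bp or more had their WT summit on the longer side of the H3K4me3 peak in 413 (72.0%), and 67.3% of the H3K4me3 length at those distances lay on that side. The bands start at round distances chosen after the profile was seen.

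**Figure D4:**
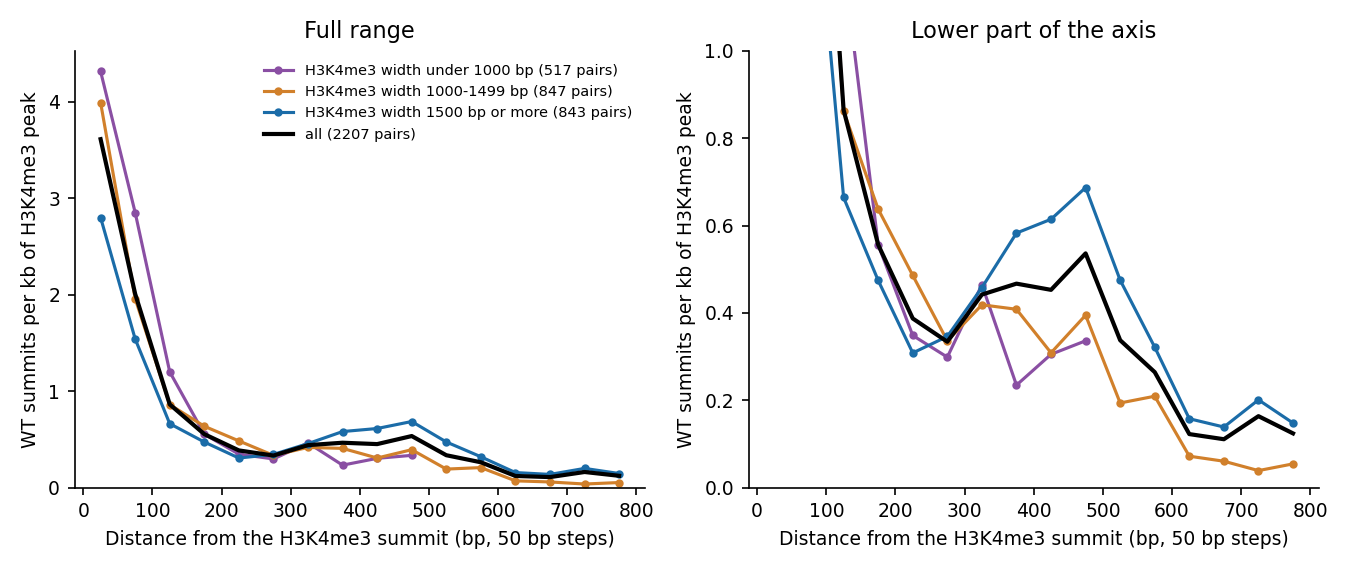
WT summits per kb of H3K4me3 peak at each distance from the H3K4me3 summit (bp, in steps of 50), for all 2207 pairs in black and by H3K4me3 width in colour. Both panels show the same curves, with the lower part of the axis enlarged on the right. Steps with under 10 kb of H3K4me3 peak are left out of the coloured curves. The blue curve, 1500 bp or more, dips to 0.31 and rises again to 0.69.

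The deepest WT peaks of this band were at 17p13.1 (3 of the first 5), 19q13.2 and 17q25.1. At 19q13.2 (chr19:39339859-39341528) the H3K4me3 peak had 182 reads at its summit and the WT peak 97 reads, 480 bp apart. At 17q25.1 (chr17:73029558-73031598) they had 136 and 87 reads, 524 bp apart. One of the 17p13.1 sites (chr17:8023685-8024297) was only 613 bp wide, with 90 reads in H3K4me3 and 96 in WT, 495 bp apart. The 9 H3K4me3 peaks with 2 WT peaks were 1346 to 3636 bp wide (median 2210), and their 2 WT summits lay 556 to 1238 bp apart (median 701). At 2q23.3 (chr2:153573451-153575566), for example, a WT summit of 24 reads lay 14 bp from the H3K4me3 summit and another of 13 reads lay 542 bp from it.

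Where both lists held a peak, the height of the WT peak followed that of its H3K4me3 peak only loosely. Over the 2207 pairs the Spearman rho was 0.27 for summit depth and 0.38 for expected depth. All pairs share the same 2 libraries, and no p is given. The median WT depth was 19 reads in the lowest decile of H3K4me3 depth among pairs and between 18 and 24 reads in deciles 2 to 7. It rose to 26, 27.5 and 37 reads in deciles 8 to 10. Among pairs, the WT summit was thus about as high on H3K4me3 peaks of 5 to 22 reads as on peaks of 81 to 110 reads. The 14773 H3K4me3 peaks without a kept WT peak do not enter these values. WT signal too low to be called is missing at every H3K4me3 depth. The values therefore do not describe the background over all H3K4me3 peaks.

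**Figure D5:**
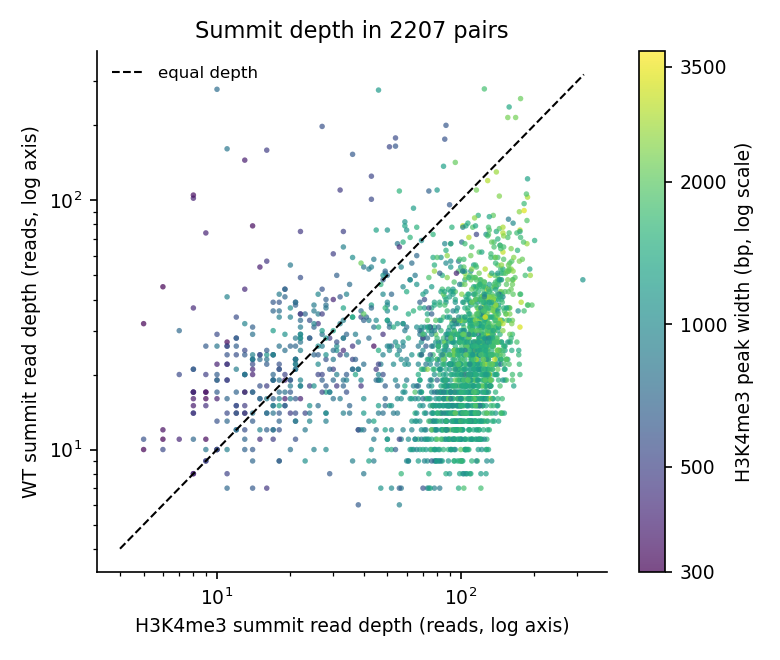
WT against H3K4me3 summit read depth for the 2207 pairs, both on log axes in reads, with H3K4me3 width in colour and equal depth dashed. Most pairs lie below the dashed line at H3K4me3 depths near 100, and 227 mostly narrower peaks lie above it.

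In 227 pairs (10.3%) the WT summit was deeper than the H3K4me3 summit. Picking pairs in this way by itself favours shallow H3K4me3 summits. The H3K4me3 peaks of these pairs were shallow, with a median of 17 reads against 29 in WT, and as narrow as the WT peak, with a median width ratio of 0.995. In the other 1980 pairs the medians were 106 reads for H3K4me3 and 22 for WT, and the ratio was 0.473. Of the 275 H3K4me3 peaks in the lowest 2 depth deciles that held a WT peak, 181 had the deeper summit in WT. Of the 227 pairs, 17 lay within 1 Mb of a chromosome end, 11 within 1 Mb of the centromere bands and 199 elsewhere. The greatest excess was at 12p13.33 (chr12:2629290-2630023), with 279 reads in WT and 10 in H3K4me3, their summits 3 bp apart. It was also the WT peak of highest −log10 q. The next was at 7q11.21, beside the centromere (chr7:61968749-61969560), with 161 reads against 11.

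The 10 WT peaks on H3K4me3 with the highest −log10 q lay mostly near chromosome ends, which was less so by fold or summit depth. These ends carry subtelomeric and telomeric repeats, and the DNA beside centromeres holds satellite arrays. Reads of many repeat copies can be placed on a few assembled ones, which was not tested here. Of the first 10 by −log10 q, 7 lay within 1 Mb of a chromosome end and 1 beside a centromere. Over all 2229 WT peaks on H3K4me3, 96 (4.31%) lay near an end. Of the first 10 by fold 5 did, and of the 50 deepest 11 did, with 34 away from ends and centromeres. The WT peak of highest fold, 24.2, was 9.89 kb from the end of 12q (chr12:133841400-133842008), where WT had 176 reads and H3K4me3 86. At the end of Xq (chrX:155259847-155260521) WT had 200 reads and H3K4me3 87. Beside the centromere of chromosome 1, at 1p11.2 (chr1:121484132-121485473), WT had 277 reads and H3K4me3 46. Over all H3K4me3 peaks, 97 of 576 near ends (16.8%) and 42 of 260 near centromeres (16.2%) held a WT peak, against 12.9% elsewhere. Their depth and width classes give 15.5%, 12.8% and 13.0%.

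Away from ends and centromeres, 6 of the 20 deepest WT peaks on H3K4me3 lay in 1 run at 1q23.3. They belong to 7 WT peaks at chr1:161391823-161440253 that overlapped 7 of the 8 H3K4me3 peaks there. The band holds a well-known cluster of tRNA genes in tandem repeats. Whether the peaks lie on those genes was not analysed here. The WT summit depths were 52, 137, 109, 215, 256, 215 and 237 reads from the lower to the higher coordinate. The H3K4me3 depths were 110, 85, 74, 168, 176, 156 and 158 reads, so WT was the deeper at 6 of the 7 places. The last 4 WT summits followed each other at 6.81, 8.01 and 6.78 kb. Expected depth in WT reached 86.3 reads, the highest of the whole list. The first peak had an expected depth of 7.15 reads and a fold of 6.51. The others had expected depths of 39.6 to 86.3 reads, and folds of only 2.45 to 3.40.

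The other runs of at least 4 WT peaks with gaps of at most 20 kb were at 5q35.3, 6p22.2 and 19q13.2. The runs held 22 of the 2381 WT peaks, and 2087 stood alone. Bands 5q35.3 and 6p22.2 are also known for tRNA gene clusters, and 6p22 for histone genes. At 5q35.3 (chr5:180596625-180671509), within 1 Mb of the chromosome end, 6 WT peaks had 41 to 113 reads, 5 of them on H3K4me3 peaks. At 6p22.2 (chr6:26305141-26323475) all 4 WT peaks were on H3K4me3, with 40 to 76 reads. At 19q13.2 (chr19:40909680-40950704) 5 WT peaks of 17 to 63 reads lay on 4 H3K4me3 peaks of the 5 there. At 17p13.1, another band with tRNA genes, WT peaks of 142 and 120 reads lay on H3K4me3 peaks of 95 and 129 reads at chr17:8089179-8091254 and chr17:8124247-8127062, with summits 421 and 343 bp apart.

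The 152 WT peaks off H3K4me3 were the weaker part of the list. Their median depth was 17 reads against 23 for those on H3K4me3, their median width 535 bp against 650 bp, and their median fold 5.54 against 6.46. The share on H3K4me3 was 87.4% in the lowest decile of WT depth, 98.6% in decile 6 and 91.3% in the top decile, so both ends of the range held more peaks off the mark. It was 94.4% away from ends and centromeres, 88.9% (96 of 108) near ends and 73.7% (42 of 57, 60.3 to 84.5) near centromeres. The 152 peaks were seldom just outside an H3K4me3 peak. Their median distance to the nearest one was 29.7 kb (interquartile range 11.3 to 119), with 8 under 1 kb and 42 at 100 kb or more. The deepest lay at 18p11.32 (chr18:107854-109364) with 231 reads, 2.74 kb from the nearest H3K4me3 peak. The one of highest fold, 19.1, lay at 13q33.3 (chr13:110076336-110076802) with 49 reads, 155 kb away.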

How the data were processed

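CUT&Tag libraries of A549 cells were compared as 1 deposited peak list per group, WT anti-HA and HA-BAZ2B H3K4me3, each from 3 replicates. Per the submitters' processing notes, the tools were Bowtie2 2.4.5 (alignment), MACS2 2.1.4 (peak calling), Picard, SAMtools 1.15.1 and bedtools, with the builds hg19 and dm6. The sources used here do not give the MACS2 settings or name a control library. Only peaks found in at least 2 replicates were kept, per the labels, and their rows come from the replicate with the largest file. Peak names show that this was WT replicate 2 and H3K4me3 replicate 1, so all values are those of 1 library. Nothing in the labels says whether replicates were separate cultures.

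Fold enrichment, as deposited, is the ratio of reads at the summit to MACS2's local background. Median expected depth rose from 0.7475 reads in the narrowest decile of H3K4me3 width to 16.1 in the widest. Fold enrichment and expected depth were thus not measures apart from peak width. The deposited −log10 p and −log10 q values are the authors' peak scores. Summit depth k and expected depth were solved from fold = (k + 1) / (expected + 1), with MACS2's pseudocount of 1, and an upper-tail Poisson p, within 1e-04 of the deposited −log10 p. On simulated peaks 1000 of 1000 depths were recovered.

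Peaks were matched by an overlap of at least 1 bp. Deciles and quartiles were taken over all H3K4me3 peaks, with ties kept together. The share given for depth and width classes is the mean, over a set of peaks, of the share in each peak's depth decile and width quartile. Near means within 1 Mb of a chromosome end or of the centromere bands, from the hg19 bands in circlize 0.4.16 (R 4.3.3). Python 3.11.15, numpy 2.4.6, pandas 2.3.3, scipy 1.17.1 and matplotlib 3.10.9 were used. Sites were named by fixed ranks within a list (highest fold, −log10 q, summit depth, width or depth ratio, runs of at least 4 WT peaks, and H3K4me3 peaks with 2 WT peaks). The comparison, its members, the lists and the descriptors were chosen with earlier results of these data known, and summit depth, the distance bands, the runs and the arms were chosen after the lists were seen. The anti-HA list of tagged cells, gene names and sequences were not used here. Pathway gene lists were not analysed here, since the only annotation used is on another build than the files.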

Additional observations from a re-analysis of the deposited data

Results flagged for a closer look

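Outside chromosomes 1 to 22 and X the WT list held 70 peaks, which entered no comparison. Of these, 47 lay on an H3K4me3 peak of the same sequence (67.1%, exact 95% interval 54.9 to 77.9), a lower share than the 93.6% of the chromosomes analysed. On alternative haplotypes 24 of 25 did, on unplaced or unlocalised sequences 18 of 33, on chromosome Y 3 of 8 and on mitochondrial DNA 2 of 4. The difference between these sequences and the chromosomes analysed was not tested.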

How the results depend on the processing

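Of 82 values recomputed under another setting (an overlap covering 50% of the WT peak, a −log10 q of at least 5 in either list, the WT summit inside the H3K4me3 peak, all overlapping pairs, without the outer 1 Mb of chromosomes, and also without 1 Mb around centromere bands), 43 were chosen after seeing the data: all of those without the centromere bands, by summit depth or for the share of summits 250 bp or more away. Of the 82, 71 stayed within their interval and 11 moved. Each value is a single share, distance, position or ratio without a sign, so none could change direction. With WT peaks at a −log10 q of at least 5, the share of WT peaks on H3K4me3 was 94.6% and that of H3K4me3 peaks with a WT peak 11.6%. In the lowest and highest quartile it was then 6.52% and 20.1% by width, 11.9% and 9.72% by fold, and 6.37% and 26.9% by summit depth, with 5.54% in the lowest depth decile, and the median width ratio was 0.516. Fewer WT peaks enter these values by construction. With H3K4me3 peaks at a −log10 q of at least 5, the lowest fold quartile had 14.4%, and the cause was not tested. No paired analysis was possible because each group has 1 list and no value per replicate, and leaving out a replicate could not be run for the same reason. WT peaks of low depth limit the lists, and the lowest summit depth in the WT list was 6 reads. The reads needed for a call rise with expected depth, and a peak had to be found in at least 2 replicates. An H3K4me3 peak without a WT peak thus had no background peak kept, which does not mean no background.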
